A study of Mus musculus with 20 samples.

Results

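The 10 genes described here encode the MHC class II molecules of the mouse and the proteins that load and switch them on: H2-Aa, H2-Ab1, H2-Eb1, H2-DMa, H2-DMb1, H2-DMb2, H2-Oa, H2-Ob, Cd74 and Ciita. They were taken by symbol from the table of raw liver counts, in which each has 1 of the 48440 gene lines, and all 10 were kept, with 16071 genes in all, when genes of low count were filtered out with edgeR. MHC class II molecules are heterodimers of an α and a β chain that display peptides from the endolysosomal pathway to CD4+ T cells. Newly made dimers are held by the invariant chain, which Cd74 encodes. H2-DM then exchanges its last fragment for a peptide, H2-O restrains H2-DM, and the coactivator CIITA switches the whole set on. In liver, these genes are known mainly from Kupffer cells, dendritic cells, B cells and sinusoidal endothelium rather than from hepatocytes.

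The livers came from 20 wild-type female C57BL/6 mice, aged 8 weeks per the labels, in 4 groups of 5. Isotype + Vehicle mice had plain drinking water with vehicle and an isotype control antibody, and Isotype + CORT mice had corticosterone (CORT, 100 μg per ml) in the water and the same control antibody. αACBP + Vehicle and αACBP + CORT mice instead had a monoclonal antibody that neutralizes the acyl-CoA-binding protein ACBP/DBI. All antibodies were injected at 5 mg per kg body weight 2 times per week over the 5 weeks of treatment, so that no group was free of injected antibody. The model is whole liver of 1 sex and 1 strain after exogenous CORT. The C57BL/6 haplotype makes no surface H2-E, because its Eα gene is defective. In the deposited table that gene, H2-Ea-ps, was above 0 in 1 of the 20 livers, at 0.367 CPM (counts scaled to a common library size with TMM, the trimmed mean of M values). H2-Eb2 was also above 0 in 1 liver, at 1.13 CPM, and H2-Pb was at 0 in all 20. None of these other class II loci could be tested.

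Each liver had between 14934926 and 20299999 counts on genes, and 3 counts, the floor used here for a gene at 0, equalled 0.145 to 0.205 CPM. Read pairs were counted, not molecules, so that floors cover counting error only. The TMM scaling factor was 1.29 in αACBP + Vehicle replicate 5 and 0.880 to 1.08 in the other livers. The labels give no cage or day. Per the paper, mice were group-housed, and its antibody experiment had fewer cages than mice in a group, with CORT in the drinking water. Which livers shared a cage is not given, so that livers of a group may not be independent. The p-values treat each liver as independent and measure the spread between these animals.

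Of the 10 genes, 8 lie together on chromosome 17 within 224335 bases of GRCm39 (chr17:34311314-34535648), in the order H2-Oa, H2-DMa, H2-DMb2, H2-DMb1, H2-Ob, H2-Ab1, H2-Aa and H2-Eb1. The other two lie on other chromosomes. Class II promoters carry a conserved module in which RFX binds an X box and NF-Y binds a Y box, and the 2 complexes together recruit CIITA. RefSeq promoter windows (GRCm38.p6, 250 bases before to 50 after each start) were found for 7 of the 10 genes, in 8 windows, and were read for the word TGATTGG as a Y box and the word AACNNATGATG as an X box, on both strands. The X box word holds the letters that 4 of these windows share before the Y box word, so that its presence in them is by construction. The words were settled after the windows had been read and do not overlap each other. The sequences below are shown because these stretches carry the elements through which the set is known to be switched on together. Each runs 5′ to 3′ on the strand of its gene, was placed on GRCm39 by a single exact match, and has the words in capitals.
H2-Eb1, chr17:34524735-34524801, plus strand: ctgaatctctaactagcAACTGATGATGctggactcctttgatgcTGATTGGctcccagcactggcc
H2-DMb1, chr17:34372057-34372123, plus strand: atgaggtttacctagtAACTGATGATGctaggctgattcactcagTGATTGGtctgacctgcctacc
H2-DMb2, chr17:34364086-34364152, plus strand: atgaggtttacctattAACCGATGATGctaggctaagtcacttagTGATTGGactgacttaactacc
H2-Ob, chr17:34457775-34457841, plus strand: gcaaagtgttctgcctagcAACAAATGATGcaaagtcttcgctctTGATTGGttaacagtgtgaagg
H2-Aa, chr17:34506826-34506892, minus strand: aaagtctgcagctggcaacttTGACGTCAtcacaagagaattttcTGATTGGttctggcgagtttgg
H2-Oa, chr17:34311263-34311329, plus strand: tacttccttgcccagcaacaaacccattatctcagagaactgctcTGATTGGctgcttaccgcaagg

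The Y box word was in the windows of 6 of these genes and in 7.82% of all 32851 mouse windows. The X box word was in 4 of them and in 0.137% of all windows. Both words together were counted on the strand of the gene only. They were found there in 4 windows of 32851 (0.0122%), namely those of H2-Eb1, H2-DMb1, H2-DMb2 and H2-Ob, from which the X box word was drawn. In these 4 genes 15 to 18 bases separated the X box word from the Y box word. The X box word was drawn only from matches within a set distance before the Y box word, so that this spacing was limited in advance. In H2-Aa a cyclic AMP response element, TGACGTCA, which 1.79% of all windows hold, ended 16 bases before the Y box word. Neither window of H2-DMa held any of these words. A match of letters is a description of the sequence and says nothing about binding in these livers.

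To compare levels between genes, CPM were divided by the kilobases of exon in GENCODE M39, which may not be the annotation of the counting. The order below depends on these lengths. In plain CPM the Isotype + Vehicle means of H2-Ab1 and H2-Aa were close, at 46.4 and 45.2. In the Isotype + Vehicle group Cd74, the invariant chain, stood highest at 32.3 ± 5.46 CPM per kilobase (SD, n = 5). The H2-A and H2-E chain genes followed, with H2-Ab1 at 18.1 ± 2.99, H2-Eb1 at 15.4 ± 4.45 and H2-Aa at 10.5 ± 2.16 CPM per kilobase. Next came the peptide editor H2-DM, with H2-DMb1 at 3.57 ± 1.56, H2-DMb2 at 1.47 ± 0.751 and H2-DMa at 1.23 ± 0.307 CPM per kilobase. The H2-O chains and the coactivator were lowest, with H2-Ob at 0.937 ± 0.376, H2-Oa at 0.693 ± 0.384 and Ciita at 0.208 ± 0.101 CPM per kilobase. Neighbours in this order overlapped between livers except at 2 steps, from Cd74 to H2-Ab1 and from H2-Aa to H2-DMb1. In the Isotype + CORT group every neighbouring pair overlapped.

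**Figure D1:**
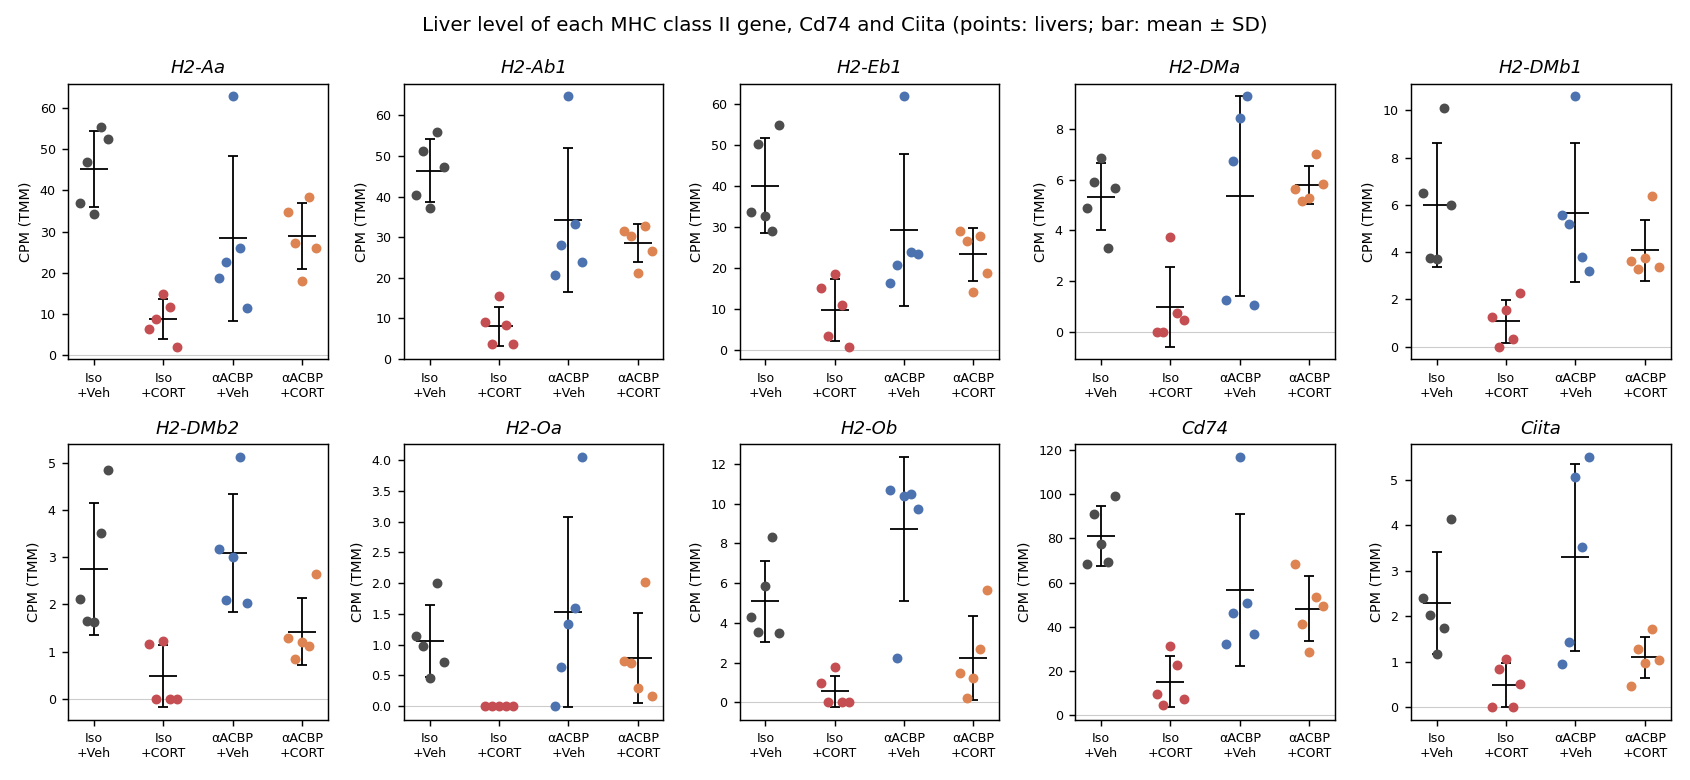
Level of each of the 10 genes in CPM (linear axis) in the 20 livers, by group, with points for livers and bars for the group mean ± SD. In all 10 genes the Isotype + CORT group has the lowest mean, and in H2-Oa all 5 of its livers are at 0.

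The first comparison asks what CORT did to the class II genes in mice with the control antibody. All 10 were lower in the Isotype + CORT group, and 5 passed the test: H2-Ab1, H2-Aa, Cd74, H2-DMb1 and H2-Oa. The test was edgeR's quasi-likelihood test, in which p, adjusted by Benjamini-Hochberg over all genes, had to be 0.05 or less and the log2 fold change 1 or more in size. By this rule 1.43% of all tested genes were lower with CORT. With DESeq2's Wald test all 10 passed, against 2.47% of all genes, and with unadjusted p from edgeR likewise, against 4.09%. The median log2 fold change of the 10 genes was -2.46, also with H2-Oa set to its bound, and that of all tested genes 0.00. Groups did not overlap in 9 of the 10 genes, the exception being H2-DMa, and 3.02% of all tested genes were lower without overlap. With a liver left out, 4 to 8 genes passed. The 8 passed without Isotype + CORT replicate 3, which had the highest value of its group in 8 of the 10 genes. Leaving it out thus widens the gap between the groups, and the share of all genes was not counted for these fits.

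H2-Ab1, which encodes the β chain of the I-A molecule, was at 40.4, 51.1, 37.1, 55.9 and 47.3 CPM in the Isotype + Vehicle livers. In the Isotype + CORT livers it was at 9.16, 3.60, 15.4, 8.34 and 3.61 CPM. The highest CORT liver thus lay below the lowest vehicle liver, and the log2 fold change was -2.53 (SE 0.34, adjusted p = 0.000291 from edgeR). Its partner H2-Aa, the α chain of I-A, was at 37.0, 47.0, 34.3, 55.3 and 52.4 CPM with vehicle. With CORT it was at 6.36, 8.65, 14.7, 11.7 and 2.06 CPM. The groups again did not overlap, with a log2 fold change of -2.37 (SE 0.44, adjusted p = 0.00487 from edgeR). H2-Eb1, the β chain of I-E, which has no partner chain in this strain, was at 33.6, 50.1, 32.6, 29.0 and 54.7 CPM with vehicle. With CORT it was at 15.2, 3.35, 18.6, 11.1 and 0.902 CPM. Its groups were also apart, but the CORT livers spread from 0.902 to 18.6 CPM, and the log2 fold change of -2.02 missed the limit (SE 0.55, adjusted p = 0.0546 from edgeR). It passed without Isotype + CORT replicate 3 or replicate 5 (lowest adjusted p = 0.0300 from edgeR).

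Cd74 (plus strand of GRCm39 chromosome 18, 60936899 to 60945731) was at 68.4, 91.2, 77.6, 69.1 and 99.4 CPM in the Isotype + Vehicle livers. In the Isotype + CORT livers it was at 9.23, 4.55, 31.4, 22.6 and 6.96 CPM. The groups did not overlap, although CORT replicates 3 and 4 stood above the other 3, and the log2 fold change was -2.44 (SE 0.47, adjusted p = 0.00796 from edgeR).

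Of the peptide editor H2-DM, the β chain gene H2-DMb1 was at 6.50, 3.73, 3.70, 10.1 and 5.99 CPM with vehicle and at 1.23, 0.00, 1.55, 0.326 and 2.25 CPM with CORT. Its log2 fold change was -2.49 (SE 0.60, adjusted p = 0.0186 from edgeR), and this call was lost without Isotype + Vehicle replicate 4 or Isotype + CORT replicate 4 (highest adjusted p = 0.0605). The second β chain gene, H2-DMb2, had no counts in 3 of the 5 CORT livers and 1.16 and 1.23 CPM in the others, against 1.62 to 4.85 CPM with vehicle. The α chain gene H2-DMa was at 4.87, 5.93, 6.85, 3.32 and 5.69 CPM with vehicle and at 0.00, 0.00, 3.74, 0.717 and 0.451 CPM with CORT. CORT replicate 3 alone lay inside the vehicle range, and without it the log2 fold change went from -2.42 (SE 0.82, adjusted p = 0.118 from edgeR) to -4.19 (adjusted p = 0.00212). H2-DMb2 had a log2 fold change of -2.51 (SE 0.92, adjusted p = 0.141 from edgeR). On the annotation, 15.5% of the 100-base words in H2-DMb1 exons also occur, on either strand, in Gm64535 or H2-DMb2. Of those in H2-DMb2, 8.81% occur in Gm64535, H2-DMb1 or Rnf125. The part shared by the 2 paralogs alone was not separated. Per the paper, the counting included non-unique features, so that reads may have been shared between these genes.

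H2-Oa, the α chain of the H2-DM inhibitor H2-O, had no count in any Isotype + CORT liver. With vehicle it was at 1.14, 0.978, 0.456, 2.00 and 0.719 CPM, from 9 to 32 counts. Set against the floor of 3 counts per liver its group mean was at least 5.87-fold lower with CORT, and H2-Oa passed edgeR's test (adjusted p = 0.0136). With voom it did not pass (log2 fold change -4.83, adjusted p = 0.078). The fitted log2 fold change of -7.20 depends on how 0 is handled and is no measure of size. Exons of BC051537 on the opposite strand cover 25.9% of its exon bases, and the strand setting of the counting is not given in the sources used here. The β chain gene H2-Ob was at 4.27, 3.55, 5.83, 8.32 and 3.47 CPM with vehicle and at 0.957, 0.00, 1.76, 0.00 and 0.00 CPM with CORT. The groups did not overlap, and the log2 fold change was -3.20 (SE 0.93, adjusted p = 0.0624 from edgeR). Ciita, the coactivator gene (plus strand of chromosome 16, 10297923 to 10347694), was at 2.41, 2.02, 1.17, 1.75 and 4.13 CPM with vehicle. With CORT it was at 0.00, 0.850, 1.07, 0.00 and 0.515 CPM, with at most 20 counts in a liver. The groups lay close but apart, and the log2 fold change of -2.20 did not pass (SE 0.86, adjusted p = 0.174 from edgeR).

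The second comparison asks what αACBP changed in mice on CORT, and it shares the 5 Isotype + CORT livers with the first. All 10 genes were higher in the αACBP + CORT group, with a median log2 fold change of 1.78 against 0.01 over all tested genes, but only 2, H2-Ab1 and H2-Oa, passed the test. Of all tested genes, 0.504% were higher by this rule. Groups did not overlap in 5 of the 10 genes, against 1.91% of all tested genes that were higher without overlap. With a liver left out, 1 to 5 of the 10 genes passed, the 5 without Isotype + CORT replicate 3. The share of all genes was not counted for these fits. With the Wald test of DESeq2 6 passed, against 1.1% of all genes by that tool. With unadjusted p from edgeR 8 passed, against 2.59%.

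H2-Ab1 was at 31.5, 30.4, 21.2, 32.7 and 26.5 CPM in the αACBP + CORT livers. All 5 lay above the highest Isotype + CORT liver, and the log2 fold change was 1.83 (SE 0.34, adjusted p = 0.0072 from edgeR). H2-Aa was at 34.7, 27.3, 18, 38.5 and 26.1 CPM, also without overlap. Its log2 fold change of 1.73 missed the limit (SE 0.43, adjusted p = 0.059 from edgeR) and passed without Isotype + CORT replicate 3 (adjusted p = 0.0252). H2-Eb1 was at 29.1, 26.6, 14.2, 27.9 and 18.9 CPM, and its lowest liver lay inside the Isotype + CORT range (log2 fold change 1.25, SE 0.54, adjusted p = 0.351 from edgeR).

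Cd74 was at 68.4, 41.2, 28.3, 53.5 and 49.4 CPM with αACBP + CORT. Replicate 3 lay below the highest Isotype + CORT liver, and the log2 fold change of 1.69 did not pass (SE 0.46, adjusted p = 0.0922 from edgeR). H2-DMa had the narrowest spread relative to its mean of all 10 genes in this group, at 5.64, 5.15, 5.28, 7.03 and 5.83 CPM. All 5 values lay above the highest Isotype + CORT liver, while the fitted log2 fold change of 2.53 had a wide error (SE 0.83, adjusted p = 0.155 from edgeR). Without Isotype + CORT replicate 3 it was 4.31 (adjusted p = 0.0026). H2-DMb1 was at 3.62, 3.28, 3.73, 6.38 and 3.35 CPM, again without overlap, with a log2 fold change of 1.93 (SE 0.60, adjusted p = 0.121 from edgeR).

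H2-Oa was detected in all 5 αACBP + CORT livers, at 0.738, 0.708, 0.287, 2.01 and 0.162 CPM. The lowest of these values rests on 3 counts, which is the floor itself, so that the lack of overlap in H2-Oa rests on a liver at the floor. Set against the floor, the group mean of H2-Oa was at least 4.32-fold higher than in the Isotype + CORT group (adjusted p = 0.0385 from edgeR). This bound is for the mean and does not hold for each liver. This call was lost when any of 9 of the 10 livers compared was left out, Isotype + CORT replicate 3 being the exception (highest adjusted p = 0.0986). It was also lost with voom (adjusted p = 0.162).

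Values of the last 3 genes lay on both sides of the highest Isotype + CORT liver. H2-Ob was at 1.48, 0.193, 1.20, 2.66 and 5.67 CPM in the αACBP + CORT livers, with a log2 fold change of 2.02 (SE 0.91, adjusted p = 0.357 from edgeR). H2-DMb2 was at 1.28, 0.836, 1.20, 1.12 and 2.65 CPM (log2 fold change 1.56, adjusted p = 0.521). Ciita was at 0.470, 1.29, 0.975, 1.71 and 1.03 CPM (log2 fold change 1.14, adjusted p = 0.669).

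**Figure D2:**
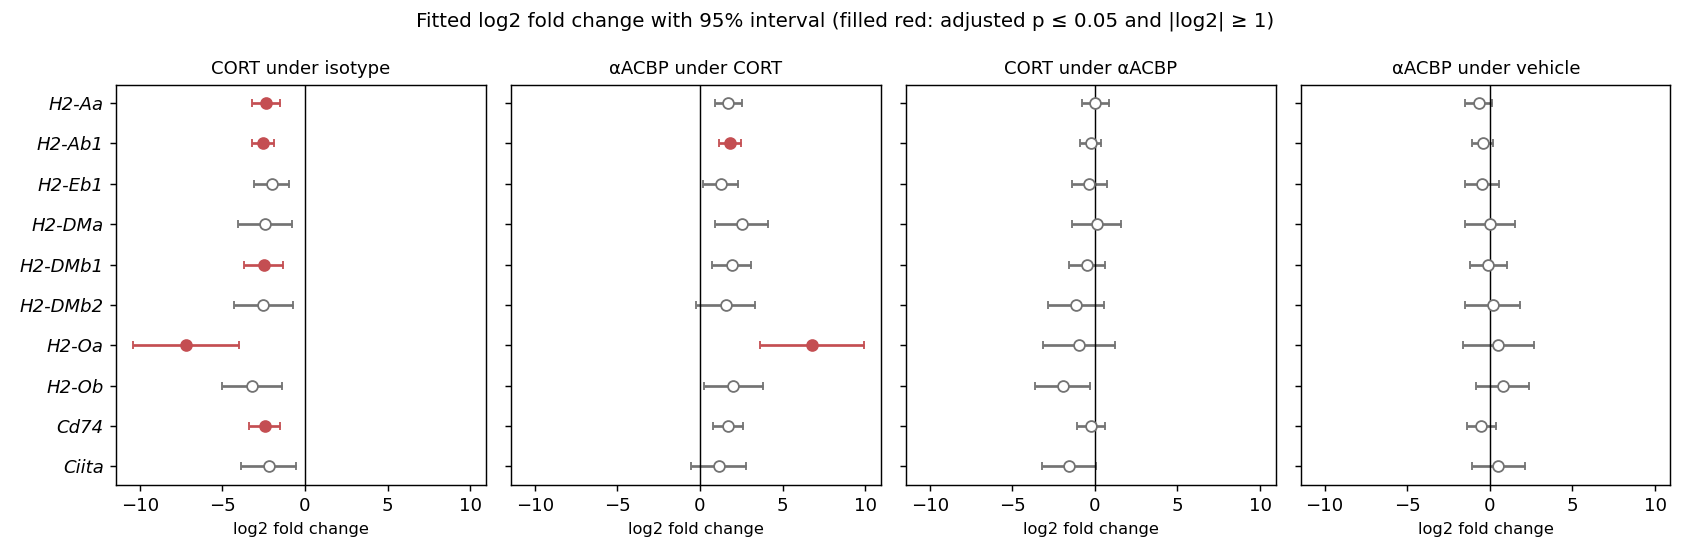
Fitted log2 fold change of each gene in 4 comparisons, with its 95% interval; filled red points passed both limits. Under isotype all 10 points lie left of 0 with 5 filled, under CORT all 10 lie right of 0 with 2 filled, and no point is filled in the other 2 panels; the size of the H2-Oa points in the first 2 panels depends on how its 5 livers at 0 are handled.

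In mice with αACBP, 0 of the 10 genes passed the test of CORT against vehicle by edgeR. With unadjusted p 1, H2-Ob, passed, as did 1.13% of all genes in that direction. Of all tested genes, 0.212% passed in this comparison. DESeq2's Wald test also called 0, and voom with liver weights called 1, H2-Ob, and 0.554% of all genes in that direction. H2-Ab1 was at 20.8, 28.0, 64.7, 33.3 and 24.0 CPM in the αACBP + Vehicle livers, and replicate 3 lay far above the other 4. The log2 fold change with CORT under αACBP was -0.26 for H2-Ab1, with a 95% interval from -0.89 to 0.36. It was 0.03 for H2-Aa (-0.78 to 0.84) and -0.23 for Cd74 (-1.10 to 0.64). Intervals were wider for the low genes, as for Ciita at -1.58 (-3.21 to 0.05). H2-Ob was at 10.7, 2.25, 10.4, 10.5 and 9.74 CPM with αACBP + Vehicle, and its log2 fold change with CORT was -1.95 (SE 0.85, adjusted p = 0.337 from edgeR).

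The difference between the 2 CORT effects was tested as an interaction. It was above 0 in all 10 genes, with a median of 2.11 on the log2 scale, and it passed for H2-Ab1 (2.27, SE 0.46, adjusted p = 0.0449 from edgeR), while 0.0996% of all genes passed in this direction. With unadjusted p 7 of the 10 passed, against 3.07%. The call was close to the limit. It was lost when any of 13 of the 20 livers was left out, with adjusted p between 0.00215 and 0.0987 over all 20. For H2-Aa the interaction was 2.40 (SE 0.60, adjusted p = 0.0935 from edgeR) and for Cd74 2.21 (SE 0.64, adjusted p = 0.169). H2-DMb2, at 1.39 (SE 1.23), H2-Ob, at 1.25 (SE 1.20), and Ciita, at 0.62 (SE 1.15), had 95% intervals that included 0.

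Without CORT, none of the 10 genes passed for αACBP against isotype by edgeR, with 0 at an unadjusted p under 0.05. DESeq2 or voom also called 0, while 1.3% of all genes passed by edgeR. Log2 fold changes ran from -0.67 (H2-Aa, 95% interval -1.48 to 0.14) to 0.78 (H2-Ob, -0.83 to 2.38), 5 below and 5 above 0. Replicate 3 of αACBP + Vehicle stood apart, with a summed class II level of 345 CPM. The other livers of its group, at 110 to 168 CPM, all lay below the Isotype + Vehicle livers, at 201 to 279 CPM. With a liver left out H2-Aa reached -1.19 and its lowest adjusted p was 0.0566 from edgeR, and 0 genes passed. In the αACBP + CORT group against the Isotype + Vehicle group, 0 of the 10 passed by edgeR, DESeq2 or voom, and 0.0684% of all genes did. There 9 of the 10 genes were lower, with a median log2 fold change of -0.72, and H2-Ab1 at -0.70 had an unadjusted p of 0.0385 from edgeR (95% interval -1.33 to -0.07). Its αACBP + CORT livers, at 21.2 to 32.7 CPM, all lay below the Isotype + Vehicle livers. The same held for Cd74, though its groups met at 68.4 CPM after rounding. No share of all genes is given for this lack of overlap, so that it does not set these 2 genes apart. Whether the 10 genes were back at the Isotype + Vehicle level is not settled by these intervals.

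Ratios within a liver do not depend on the scaling between livers. The log2 ratio of Cd74 to H2-Ab1 counts was 0.81 ± 0.31 (SD, n = 5) with Isotype + Vehicle, 0.75 ± 0.57 with Isotype + CORT and 0.72 ± 0.30 with αACBP + CORT. For H2-Aa to H2-Ab1 these ratios were -0.05 ± 0.12, 0.07 ± 0.82 and -0.01 ± 0.20, and for H2-Eb1 to H2-Ab1 -0.24 ± 0.43, -0.13 ± 1.07 and -0.32 ± 0.20. The ratios of these 3 genes spread most in the Isotype + CORT group. H2-DMa to H2-Ab1 was -3.14 ± 0.59, -4.74 ± 2.71 and -2.28 ± 0.23, higher with αACBP than with isotype under CORT by 2.45 (two-sided exact permutation test, p = 0.0476, adjusted p = 0.381 over 8 tests). None of the 8 tests passed after adjustment.

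**Figure D3:**
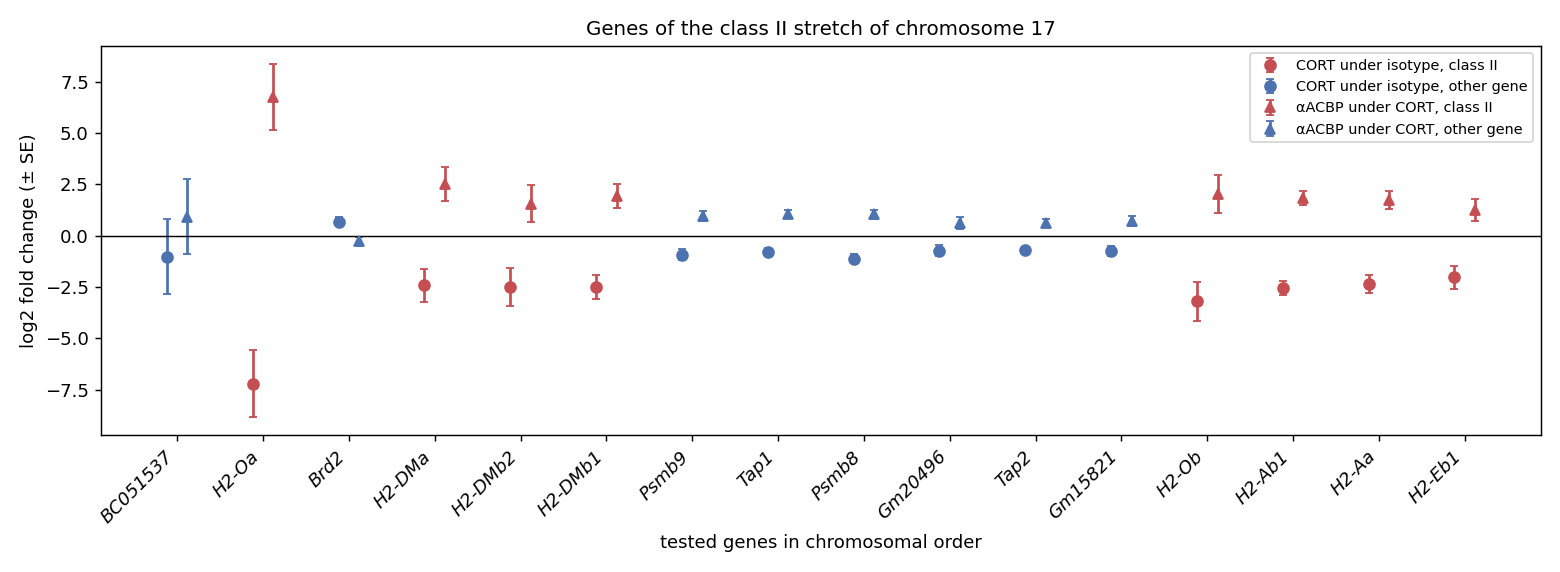
Fitted log2 fold change ± SE of the 16 tested genes in the class II stretch of chromosome 17, in chromosomal order, for CORT under isotype (circles) and αACBP under CORT (triangles); class II genes are red and others blue. The blue points stay between -1.13 and 0.69 for CORT while the red ones lie at -2.02 or below.

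Other genes lie between the class II genes on chromosome 17, and 8 of these 10 could be tested. Their log2 fold changes with CORT under isotype ran from -1.13 to 0.69, and 1 of the 8 passed. That gene was Psmb8, an immunoproteasome subunit of the MHC class I pathway, at -1.13 (SE 0.22, adjusted p = 0.00385 from edgeR). Brd2, a chromatin reader next to H2-DMa, was at 0.69 (SE 0.20, adjusted p = 0.0548). With αACBP under CORT, Psmb8 (1.05, adjusted p = 0.0155) and the peptide transporter gene Tap1 (1.06, adjusted p = 0.0072) passed. Brd2 was at -0.28 there (SE 0.20, adjusted p = 0.663 from edgeR) and so passed in neither comparison. H2-DMa has 11.8% of its exon bases opposite Brd2 exons. Whether reads of Brd2 were counted on H2-DMa was not tested.

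The pathway around the class II genes was read from prepared lists in the same fit. Of the 7 genes for the factors on the X and Y boxes (Rfx5, Rfxank, Rfxap, Nfya, Nfyb, Nfyc, Creb1), 0 passed in either comparison by edgeR. Their log2 fold changes ran from -0.50 to 0.08 with CORT under isotype and from -0.16 to 0.55 with αACBP under CORT. Rfxank, an RFX subunit, had the highest level of the list and was at -0.18 (SE 0.18) and 0.55 (SE 0.18). Of 10 tested genes of interferon-γ signalling and other regulators of Ciita, 0 passed, with medians of -0.52 and 0.35. With CORT under isotype 9 of them were lower, with log2 fold changes from -1.24 to 0.01. With αACBP under CORT 8 were higher, from -0.33 to 0.86. Irf1, an interferon-responsive activator, was at -0.44 (SE 0.24) with CORT and Jak1, a receptor kinase, at -0.20 (SE 0.15).

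Among 10 genes of endolysosomal processing, 2 fell with CORT under isotype. Ifi30, a thiol reductase that opens disulfide bonds of antigens, was at 16.8 to 31.4 CPM with Isotype + Vehicle, 4.75 to 15.3 with Isotype + CORT and 19.6 to 30.8 with αACBP + CORT. It fell with CORT (log2 fold change -1.22, adjusted p = 0.00423 from edgeR) and rose with αACBP under CORT (1.36, adjusted p = 0.00534). Ctss, cathepsin S, which trims the invariant chain, fell with CORT (-1.41, adjusted p = 0.0312) and was at 1.45 with αACBP under CORT (adjusted p = 0.0508). The median of the list was -0.31. Of 6 tested genes of T cell contact, Cd86, a costimulatory ligand, fell with CORT (-2.51, SE 0.52, adjusted p = 0.007), from 6.71 ± 3.30 to 1.17 ± 1.02 CPM (SD, n = 5). Of 9 MHC class I genes, all 9 were lower with CORT under isotype and all 9 higher with αACBP under CORT, with medians of -0.66 and 0.63, and 1 and 2 of them passed.

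**Figure D4:**
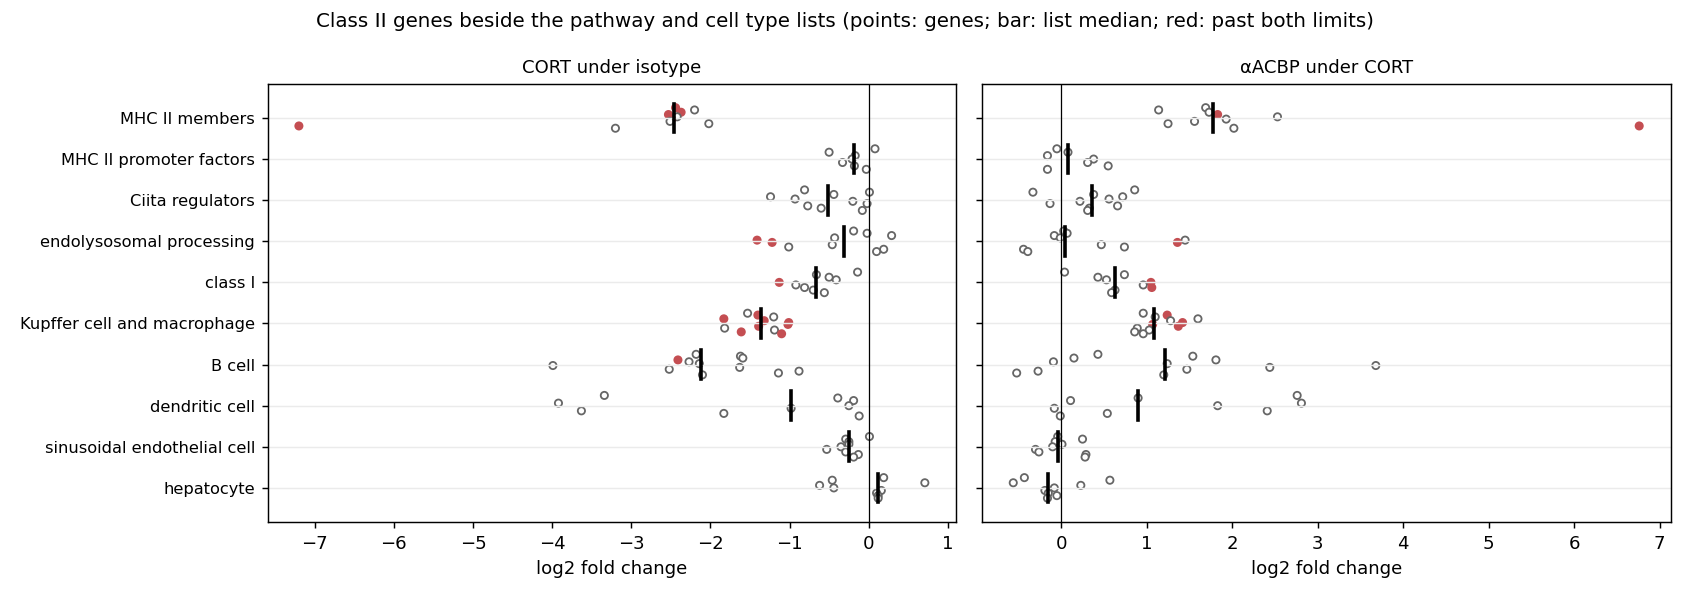
Fitted log2 fold changes of the genes of 10 lists for CORT under isotype (left) and αACBP under CORT (right); points are genes, bars list medians, and filled red points passed both limits. Among these lists the class II genes have the lowest median on the left, -2.46, and the highest on the right, 1.78, while the medians of sinusoidal endothelial and hepatocyte markers lie between -0.25 and 0.12.

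Markers of cell types that carry class II were read beside these genes. In whole liver, fewer cells of a type and less RNA per cell cannot be told apart. Of 12 Kupffer cell and macrophage markers, all 12 were lower with CORT under isotype (8 passed, median log2 fold change -1.35) and all 12 higher with αACBP under CORT (4 passed, median 1.09). Their summed level was 526 to 1110 CPM with Isotype + Vehicle, 169 to 485 with Isotype + CORT, 619 to 1050 with αACBP + Vehicle and 632 to 909 with αACBP + CORT. Clec4f, a Kupffer cell lectin, fell by 1.01 on the log2 scale with CORT (adjusted p = 0.015 from edgeR). Of 12 B cell markers, all 12 were lower with CORT under isotype (median -2.12), but only Cd22 passed (-2.41, adjusted p = 0.0224). With αACBP under CORT 9 of the 12 were higher and 0 passed by edgeR.

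The B cell markers summed to 26.9 to 50.1 CPM with Isotype + Vehicle, 3.97 to 18.7 with Isotype + CORT, 22.0 to 53.2 with αACBP + Vehicle and 9.01 to 43.8 with αACBP + CORT. Of 9 dendritic cell markers 0 passed in either comparison by edgeR. All 9 were lower with CORT under isotype (median log2 fold change -0.98), and 7 were higher with αACBP under CORT (median 0.9). Their summed levels were 28.0 to 45.2, 19.8 to 32.4, 29.0 to 64.1 and 23.5 to 36.4 CPM in the same order of groups. Summed T cell markers had medians of 12.5, 5.19, 13.4 and 9.4 CPM in that order. No cell type list had a defining marker at 0 in all livers of a group. Of the markers for sinusoidal endothelial cells, hepatocytes and cholangiocytes, 0 passed in these 2 comparisons by edgeR, with medians from -0.33 to 0.12 for CORT. The part of these cell types in the class II result was not tested.

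**Figure D5:**
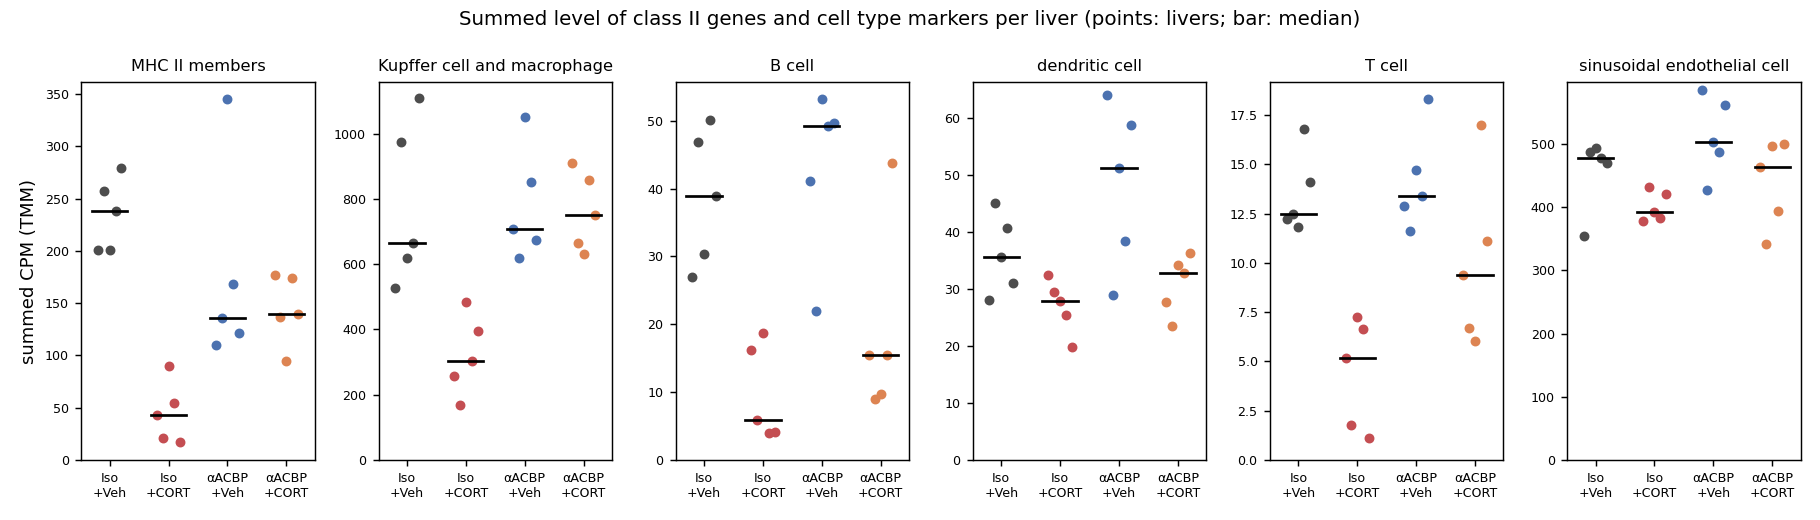
Summed CPM of the 10 class II genes and of the marker lists of 5 cell types in the 20 livers, by group; points are livers and bars group medians. The class II sum has medians of 238, 43.3, 136 and 140 CPM from left to right and is lowest with Isotype + CORT, as are the medians of the Kupffer cell, B cell, dendritic cell, T cell and sinusoidal endothelial sums.

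Single livers were compared on H2-Ob, H2-DMb2, H2-Ab1, Cd74 and the marker sums. This comparison was chosen after the values had been seen, and the groups differed in what they showed. In the Isotype + CORT group, only replicates 1 and 3 had counts of H2-Ob and of H2-DMb2, and these 2 livers had B cell sums of 16.2 and 18.7 CPM against 3.97 to 5.85 in the other 3. They were also the 2 highest for H2-Ab1, at 9.16 and 15.4 CPM, but not for Cd74. Replicate 4, with the lowest B cell sum, 3.97 CPM, had the second highest Cd74, 22.6 CPM against 9.23 CPM in replicate 1. In the αACBP + CORT group, replicate 5 had the highest H2-Ob, 5.67 CPM, and the highest H2-DMb2, 2.65 CPM. Its B cell sum was 43.8 CPM against 9.01 to 15.4 in the others. In that liver H2-Ab1, 26.5 CPM, was the second lowest of the group and Cd74, 49.4 CPM, the median. In the αACBP + Vehicle group, replicate 2 had the lowest H2-Ob, 2.25 CPM, and the lowest B cell sum, 22.0 CPM against 41.1 to 53.2. The lowest H2-DMb2 of that group was in replicate 5, at 2.03 CPM against 2.09 in replicate 2, with a B cell sum of 49.6 CPM. In the Isotype + Vehicle group, replicate 4 had the highest H2-Ob, 8.32 CPM, and the highest B cell sum, 50.1 CPM. The lowest B cell sum there, 26.9 CPM in replicate 1, went with 4.27 CPM of H2-Ob, while the lowest H2-Ob, 3.47 CPM in replicate 5, went with a B cell sum of 38.9 CPM and the highest H2-DMb2, 4.85 CPM.

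H2-Ab1 was highest with αACBP + Vehicle in replicate 3, at 64.7 CPM, where the Kupffer cell sum, 1050 CPM, and the B cell sum, 53.2 CPM, were both the highest of the group. With Isotype + Vehicle it was highest in replicate 4, at 55.9 CPM, where the B cell sum was highest and the Kupffer cell sum, 666 CPM, was the median of the group. In the Isotype + CORT group the lowest Kupffer cell sum, 169 CPM in replicate 2, went with the lowest H2-Ab1, 3.60 CPM. The highest sum, 485 CPM in replicate 3, went with the highest H2-Ab1, 15.4 CPM. In replicate 5 of that group the Kupffer cell sum was second highest, 395 CPM, and H2-Ab1 second lowest, 3.61 CPM. With αACBP + CORT the lowest Kupffer cell sum, 632 CPM in replicate 3, went with the lowest H2-Ab1, 21.2 CPM. The highest sum there, 909 CPM in replicate 1, went with the second highest H2-Ab1, 31.5 CPM.

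Over the 20 livers, the 45 pairs among the 10 genes had Pearson r of log2 CPM between 0.47 and 0.96, with a median of 0.72. After group means were subtracted the range was -0.08 to 0.87 and the median 0.32. These values share the libraries, their scaling and, in the first case, the treatment groups, and they are given as a description. The genes most like the mean of the 10, outside the set, were Mpeg1, a perforin-like gene of macrophages, Evl, an actin regulator, and Slc22a26, a transporter gene, each with r = 0.93 over 20 livers. Hk3 (0.91), Pirb (0.91) and Csf1r, the receptor that macrophages need for survival (0.91), and the interferon-induced Ifit3 (0.89) were also among the first 10. After subtraction of group means the closest were G530012D18Rik (0.83), Serpina6, which encodes corticosteroid-binding globulin (0.81), and Clec4f (0.80).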

How the data were processed

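Liver RNA of the 20 mice was sequenced by the authors, who aligned read pairs with HISAT2 and counted them on genes with HTSeq, and deposited the counts as they were, without normalization. The paper names GRCm39 and the submitters' processing notes name mm10. Of the 48440 gene identifiers, 91.4% were found in GENCODE M39, and 0.079% of these carry its version number, so that the annotation of the counting is not settled. Positions, exon lengths and overlaps are those of GENCODE M39 on GRCm39, matched by identifier. Lines for pairs on no gene (42.3 to 45.2% of a liver's pairs) were left out.

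The counts were analysed in R 4.3.3 with edgeR 4.0.16 (TMM, filterByExpr, robust quasi-likelihood test, 1 model of 4 groups without covariates). All 10 genes are named. Of each other list the genes that passed in CORT under isotype or αACBP under CORT are named, at most 4, and otherwise the 2 of highest level. A result that this rule would name is not reported here. Lists are described by counts and medians. The genes, lists and tests were chosen with earlier results of these data known. H2-Ea was read as H2-Ea-ps through RefSeq synonyms, March1 and March8 likewise, and Tf was not found. Ratios used 0.5 added to each count. Alternatives were DESeq2 1.42.0 (size factors, Wald test), voom with liver weights in limma 3.58.1, other filters and library sizes, only the groups compared, a replicate block and each liver left out. Programs were tested on simulated data. Between any 2 livers of a group, 40 pairs, chi-square per gene was 12.2 or more, so that none was a library deposited again.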

Additional observations from a re-analysis of the deposited data

Results flagged for a closer look

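In groups of 5 livers, the highest or lowest value was set apart when its gap to the next exceeded 0.71 of the whole range, which chance gives in about 1 of 20 groups; 8 of 39 groups tested did so, and the genes are not independent of each other. In αACBP + Vehicle, replicate 3 was the highest liver for H2-Aa (62.9 CPM, others 11.5 to 26.1), H2-Ab1 (64.7 CPM, others 20.8 to 33.3), H2-Eb1 (61.8 CPM, others 16.4 to 23.9) and Cd74 (117 CPM, others 32.2 to 50.7). In the same group replicate 2 was the lowest for H2-Ob, at 2.25 CPM against 9.74 to 10.7. In Isotype + CORT, replicate 3 was the highest for H2-DMa, at 3.74 CPM against 0.00 to 0.717. In αACBP + CORT, replicate 4 was the highest for H2-DMb1, at 6.38 CPM against 3.28 to 3.73, and replicate 5 for H2-DMb2, at 2.65 CPM against 0.836 to 1.28. The CORT effect on H2-Ab1 differed between antibodies by 2.27 on the log2 scale (interaction term in edgeR, adjusted p = 0.0449).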

How the results depend on the processing

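Of 5 genes called with CORT under isotype, the count became 10 with DESeq2's Wald test or with unadjusted p, 3 with only the groups compared, and 4 to 8 with a liver left out. With voom the count stayed 5, with H2-Eb1 gained and H2-Oa lost. Of 2 with αACBP under CORT it became 6 with the Wald test, 8 with unadjusted p, 1 with voom or only the groups compared, and 1 to 5 with a liver left out. Of 0 with CORT under αACBP it became 1 with voom or unadjusted p, and stayed 0 with each liver left out. The interaction, 1 gene, became 3 with the Wald test, 7 with unadjusted p, 0 with no filter beyond 1 count, where more genes were tested, and 0 to 2 with a liver left out. The other 2 comparisons had 0 throughout. The cause of these shifts was not tested. Shares of all genes stand above for the Wald test and unadjusted p in the first 2 comparisons, and for unadjusted p in the interaction. With CORT under αACBP they stand there for voom and unadjusted p. No share is given for the other settings, the replicate block below included, so that their counts alone do not set the 10 genes apart. A filter of 10 counts in every liver left 4 of the 10 genes, only the groups compared left 9 in 2 comparisons, and the interaction needs all groups.

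Livers of the same replicate number share only that number: their deviations correlated between -0.0999 and 0.0969, 0 of 30 pairs above 0.1, and 4 of 20 livers correlated best with their own number. With the replicate block 7, 2, 0, 0 and 0 genes were called in the comparisons in the order of the report and 1 in the interaction.

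Values near 0 changed sign. H2-DMa with αACBP under vehicle (0.00) was -0.08 with voom, -0.01 with no filter or only the groups compared, -0.02 without the 20 most abundant genes in library sizes and -0.35 with the replicate block. With voom, H2-DMb1 there was 0.19 and H2-Oa -0.30, and H2-Oa was 0.20 with CORT under αACBP. With a liver left out, ranges with CORT under αACBP were -0.17 to 0.55 (H2-Aa), -0.40 to 0.10 (H2-Ab1), -0.48 to 0.14 (H2-Eb1), -0.15 to 0.41 (H2-DMa) and -0.39 to 0.22 (Cd74). With αACBP under vehicle they were -0.29 to 0.26 (H2-DMa), -0.44 to 0.18 (H2-DMb1), -0.09 to 0.47 (H2-DMb2) and -0.26 to 0.88 (H2-Oa), and H2-DMa in αACBP + CORT against Isotype + Vehicle was -0.01 to 0.22. Log2 ratios to H2-Ab1 with CORT ran over -0.23 to 0.13 (Cd74), -0.18 to 0.33 (H2-Aa) and -0.10 to 0.57 (H2-Eb1), and with αACBP under CORT over -0.22 to 0.14, -0.30 to 0.22 and -0.65 to 0.02. Depth limits H2-Oa, Ciita, H2-DMb2 and H2-Ob, which had at most 20 to 33 counts or none in Isotype + CORT livers.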
